A study of Schizosaccharomyces pombe with 3 samples.

Results

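The glucan synthases of fission yeast, Schizosaccharomyces pombe, were examined in a map of the corepressor subunit Ssn6. The family comprises 9 genes, the catalytic subunits of beta-glucan synthesis bgs1, bgs2, bgs3 and bgs4 and the alpha-glucan synthases ags1, mok11, mok12, mok13 and mok14. Every array feature that carries the symbol, an older name or the systematic name of one of these genes was taken, whatever its value. This gave 21 of 10213 named features, with 9 upstream intergenic features, 9 coding features and 3 additional features labelled as long intergenic, which belong to bgs1, bgs4 and mok13. The array names bgs1 cps1, an older name. Today cps1 is the symbol of SPAC24C9.08, which has its own feature on the array under the systematic name.

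The study has 1 group of 3 two-colour arrays, identified here by their slide numbers 1, 2 and 10. Cells expressing Ssn6 fused to green fluorescent protein were grown in rich YES medium to mid log phase and crosslinked. Chromatin precipitated with an antibody against the tag (IP) was hybridised on each array together with input chromatin of the tagged cells. All samples carry the tagged protein; no untagged or mock precipitation was analysed here, and rich medium is the only growth condition. The labels speak of 3 separate experiments but do not tie them to single arrays, so p-values measure the spread between arrays.

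The direction of the ratio has to be given before any value. The labels place IP in Cy5 and input in Cy3, state that dyes were not swapped, and do not name the dye of channels A and B in the files. Channel B over channel A on slide 10 correlated negatively with the same ratio on slide 1 (Pearson r = -0.48 across 3960 features) and on slide 2 (r = -0.54), whereas slides 1 and 2 correlated at 0.72. The deposited values of slides 1 and 2 track channel B, and those of slide 10 track channel A. IP was therefore taken as channel B on slides 1 and 2 and as channel A on slide 10. This choice is likely but not settled, and it rests partly on correlations between these same ratios. Agreement of slide 10 with slides 1 and 2 is thus partly built into the limma p-values. For this reason the values with channel B over A on all 3 arrays (the unturned reading) are given beside the results. The sign of every slide 10 value printed below turns in that reading, and the sign of all ratios could also be turned as a whole.

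Ssn6 acts with the Tup11 and Tup12 proteins as a corepressor that DNA-binding factors bring to promoters, where it represses transcription. The fission yeast wall is built mainly of beta-glucan and alpha-glucan, which large membrane enzymes synthesise under the control of protein kinase C and the cell integrity pathway. Bgs1 makes the linear beta-glucan of the primary septum, Bgs4 makes much of the beta-glucan that keeps cells intact, Bgs3 is needed for growth, and Bgs2 acts in the spore wall. Ags1, also called Mok1, makes the alpha-glucan of growing cells, while mok12, mok13 and mok14 are known from spore wall formation.

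Precipitated chromatin showed 1 tested difference from input in the family. The coding feature of mok12 was depleted, and the only upstream feature measured on all 3 arrays, that of mok12, was not called. The highest ratio of the family stood upstream of mok13, where it was measured on slide 10 alone. Among the genes that share an upstream region with a member, gas1 beside bgs3 and dna2 beside mok13 had the highest ratios at their own upstream features.

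Promoter windows of 300 bases are shown for mok13 and gas1, because the highest ratios named below are those of their upstream features. The windows lie directly before the annotated transcript start in the RefSeq assembly ASM294v3, at chrII:3597136-3597435 on the plus strand for mok13 and chrI:4880741-4881040 on the minus strand for gas1. Each reads 5′ to 3′ on its gene's strand, and capitals mark the motif GTAAACA, written on its reverse strand as TGTTTAC. The array files give no coordinates, so which part of a region a spot covers is not known.
mok13: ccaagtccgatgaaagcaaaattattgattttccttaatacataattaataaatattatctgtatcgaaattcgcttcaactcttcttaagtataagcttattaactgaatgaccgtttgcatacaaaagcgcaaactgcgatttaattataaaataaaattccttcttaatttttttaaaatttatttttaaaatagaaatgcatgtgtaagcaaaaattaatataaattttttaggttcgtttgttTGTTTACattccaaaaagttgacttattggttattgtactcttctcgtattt
gas1: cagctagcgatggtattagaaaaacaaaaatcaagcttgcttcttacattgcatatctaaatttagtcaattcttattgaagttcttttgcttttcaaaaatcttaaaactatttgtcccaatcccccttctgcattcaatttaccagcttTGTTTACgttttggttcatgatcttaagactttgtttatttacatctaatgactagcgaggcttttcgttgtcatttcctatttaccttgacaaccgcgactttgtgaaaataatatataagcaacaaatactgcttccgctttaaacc

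GTAAACA is the core recognised by forkhead factors such as Mei4, which acts in meiosis, and Sep1. It began 52 bases before the start in mok13 and 149 bases before it in gas1. Searched on both strands, it stood in 4 of 9 member windows (bgs3, ags1, mok13 and mok14) and in 17.0% of 5123 promoters of the same length. The Ste11 motif TTCTTTG, bound by the regulator of sexual development, stood in the bgs1 window and in 9.7% of all promoters. The letters TGACGT (Atf1 and Pcr1; 6.0% of promoters), CCCCGC (1.1%), CCCCAC (3.0%; both for Scr1-type zinc fingers) and ATCNGATAA (Fep1-type GATA factors; 1.7%) occurred in 0 member windows. Matches of different motifs were counted independently, whether or not they overlapped. The windows of mok11, mok12 and mok14 overlap annotated transcripts of the neighbouring aah2, alg2 and mib1. The mok13 window had a GC content of 24.7%, against 33.0% for gas1.

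Most of the family's upstream features gave a ratio on slide 10 only or on slides 1 and 10. Both channels gave signal at 8 of 18 upstream spots on slide 1, at 2 of 18 on slide 2 and at 18 of 18 on slide 10. For coding spots the counts were 15, 12 and 18 of 18. Slides 1 and 2 lost intergenic spots throughout the array, with both channels present at 33.3% and 26.8% of all intergenic spots and 65.3% and 49.1% of all coding spots, while slide 10 kept 93.7% and 97.4%. Member spots with signal in the IP channel alone numbered 6 and 7 of 18 upstream on slides 1 and 2, and those with input alone 0 and 0. Over all 10342 intergenic spots, IP alone was seen at 2946 and 4195, and input alone at 29 and 24. Spots without input signal gave no ratio, whatever their IP signal. The counts of called features below therefore cover only features with detectable input. A ratio for all 3 arrays was thus available at 10 of 21 member features, 1 upstream, 6 coding and 3 long. In the IP channel, 2, 1 and 18 of 18 upstream spots on slides 1, 2 and 10 lay above the 95th percentile of 1624 negative-control spots, and 4, 1 and 18 of 18 coding spots did. That limit was 1959, 4452 and 222.7 mean pixel intensity units on slides 1, 2 and 10, so most member spots on slides 1 and 2 lay below it.

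**Figure D1:**
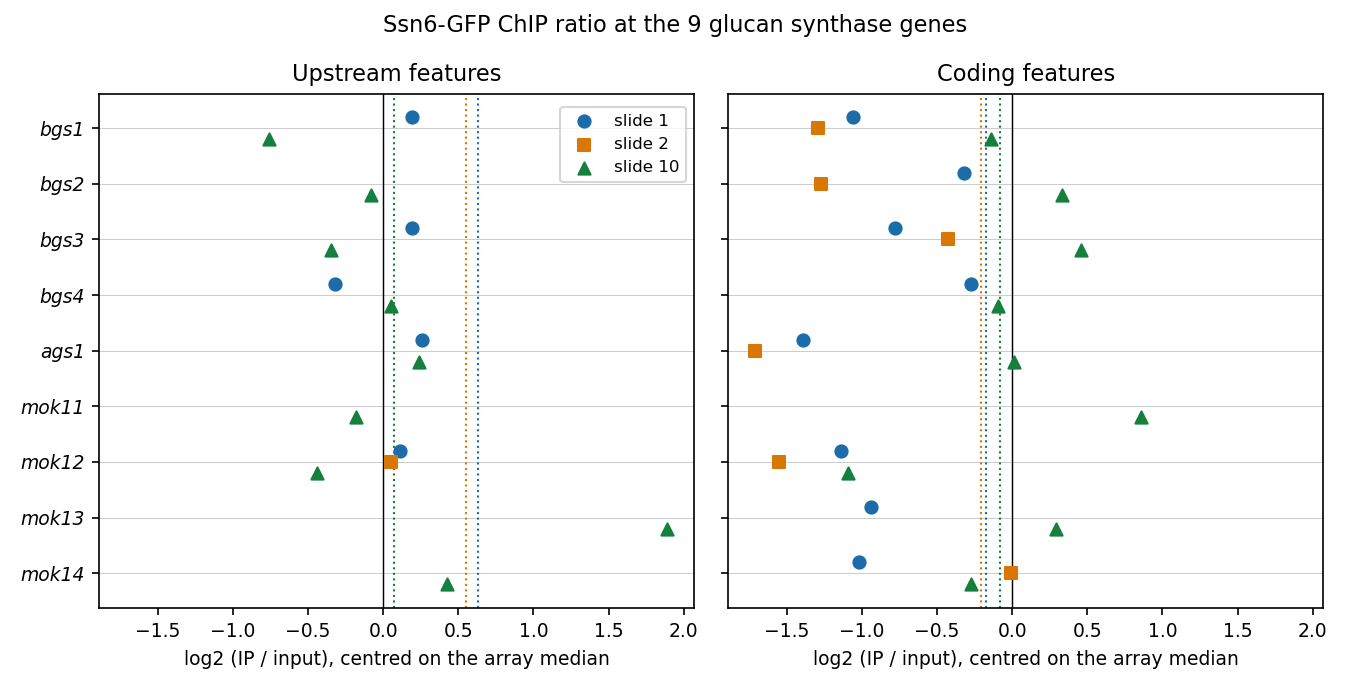
Log2 ratio of IP over input (x axis, centred on each array's median) for the upstream (left) and coding (right) features of the 9 genes, one point per array. Dotted lines mark the median of all intergenic (left) or all coding (right) features of the array of the same colour; mok12 is the only gene whose coding points lie below -1 on all 3 arrays, and the mok13 upstream point at 1.89 comes from slide 10 alone.

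The beta-glucan synthases were described first at their coding features. The coding feature of bgs1 had log2 ratios of -1.06, -1.29 and -0.14 on slides 1, 2 and 10. It was low on slides 1 and 2 and close to the array median on slide 10. Its mean was -0.83 ± 0.61 (SD, n = 3), and the limma fit gave an adjusted p of 0.111. In the unturned reading the mean was -0.74 with an adjusted p of 0.777. For bgs2 the coding values were -0.32, -1.27 and 0.33, and they lay on both sides of 0. The mean of -0.42 ± 0.81 (SD, n = 3) was smaller than the spread between arrays (limma adjusted p = 0.453). The coding feature of bgs3 was likewise on both sides of 0, with -0.78, -0.43 and 0.46 and a mean of -0.25 ± 0.64 (SD, n = 3; limma adjusted p = 0.638). That of bgs4 had -0.27 on slide 1 and -0.10 on slide 10 and gave IP signal without input signal on slide 2.

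Upstream of the beta-glucan synthases, 3 of the 4 genes had a ratio on slides 1 and 10 and 1 on slide 10 alone. The bgs1 upstream feature had 0.19 on slide 1 and -0.76 on slide 10, the lowest upstream value of the family on that array, at percentile 5.42 of intergenic features. On slide 10 its IP spots read 5779 and 5875 mean pixel intensity, against 12454 and 10637 in input. The bgs3 upstream feature had 0.19 on slide 1 and -0.35 on slide 10. For bgs4 the values were -0.32 and 0.05 on slides 1 and 10, and bgs2 had -0.08 on slide 10 alone. The median of all intergenic features was 0.63, 0.55 and 0.07 on slides 1, 2 and 10, so each of the 3 beta-glucan synthase values on slide 1 lay below the intergenic median. The long intergenic features of bgs1 (0.04, 1.23 and -0.07 on slides 1, 2 and 10) and bgs4 (-0.57, 0.48 and -0.02) spread on both sides of 0, and the slide 2 value of bgs1 rests on 1 spot. Their limma adjusted p-values were 0.454 and 0.954.

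The alpha-glucan synthases held both the depleted feature and the highest ratio. The mok12 coding feature had log2 ratios of -1.14, -1.55 and -1.09 on slides 1, 2 and 10, and both of its spots were negative on every array. Apart from 1 spot on slide 1, its IP spots on slides 1 and 2 lay below the negative-control limit. On slide 10 its IP spots had mean pixel intensities of 4278 and 4214, against 10947 and 10151 in input, which placed the feature at percentile 1.69 of coding features on that array. The mean was -1.26 ± 0.25 (SD, n = 3; 95% confidence interval -1.91 to -0.61), a ratio of 0.417, with a limma adjusted p of 0.0201 over 3960 features. In the unturned reading slide 10 gives 1.09, the mean is -0.53 ± 1.42 (SD, n = 3) and the call is lost (limma adjusted p = 0.86). The call was also lost without slide 1 (mean -1.32, limma adjusted p = 0.0671) and without slide 2 (-1.12, 0.199). Without slide 10 it was kept (-1.345, 0.0271). It depended on the processing too, with limma adjusted p-values of 0.0659 after local background subtraction and 0.0608 after loess. With normexp correction the call was kept at a mean of -2.28 (limma adjusted p = 0.0207).

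Thus 1 of 6 tested member coding features was depleted by the limma test (adjusted p under 0.05), beside 7.85% of all 2600 tested coding features. Enriched coding features numbered 0 of 6 in the family and 2.42% of all coding features. Over all 3960 tested features, which include some that are neither intergenic nor coding, 8.26% were enriched and 5.61% depleted. At an unadjusted limma p under 0.05, 3 of the 6 member coding features passed, all with negative means, beside 29.6% of all tested coding features in either direction. The median of the 6 means was -0.63, and that of all tested coding features was -0.28. Upstream, 0 of 1 tested member features was called by limma, also at an unadjusted p under 0.05, beside 19.7% enriched and 0.904% depleted among all 1327 tested intergenic features. Among the 3 long features limma called 0, and 0 passed at an unadjusted p under 0.05. When features measured on at least 2 arrays were admitted, 0 of 5 member upstream features was called, 0 at an unadjusted p, while 13.7% of all intergenic features were enriched. Of the coding features, 1 of 8 members (mok12; limma adjusted p = 0.0266) and 4.31% of all were depleted in that fit.

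The ags1 coding feature had -1.39, -1.71 and 0.01 on slides 1, 2 and 10, and its mean of -1.03 ± 0.92 (SD, n = 3) gave a limma adjusted p of 0.0893. It was among the lowest coding features on slides 1 and 2, at percentiles 11.5 and 7.14, and near the middle on slide 10, at percentile 57.9. Slides 1 and 2 share 1 channel orientation, so their values do not turn in the unturned reading. Fitted on these 2 arrays alone, the coding features of ags1 (mean -1.55, limma adjusted p = 0.0181), mok12 (-1.34, 0.0271) and bgs1 (-1.18, 0.0348) were depleted, 3 of 6 in the family, beside 19.4% of all coding features. The coding features of bgs2, bgs3 and mok14 had means of -0.80, -0.61 and -0.52 there, with limma adjusted p-values of 0.14, 0.179 and 0.309. On both arrays the IP spots of ags1 lay below the negative-control limit, at 1463 and 1501 on slide 1 and 1813 and 1864 on slide 2. For bgs1 and mok12, 1 spot each on slide 1 lay above it and the others below. The low ratios of these features on slides 1 and 2 thus set input against IP signal mostly within the negative-control range.

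Among the remaining alpha-glucan synthases, the mok14 coding feature had -1.02, -0.01 and -0.28 on slides 1, 2 and 10 (mean -0.44 ± 0.52, SD, n = 3; limma adjusted p = 0.374). The mok13 coding feature had -0.94 on slide 1 and 0.29 on slide 10, and its slide 10 spots were the brightest coding spots of the family, at 19817 and 21329 in IP and 19446 and 19673 in input. The mok11 coding feature had a ratio on slide 10 only, 0.86, at percentile 93.2 of coding features there. Its spots gave IP signal without input signal on slide 1 and no signal on slide 2. Across the family, coding values on slide 10 ran from -1.09 for mok12 to 0.86 for mok11, and 5 of 9 were above 0.

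The mok13 upstream feature had a log2 ratio of 1.89 on slide 10, a ratio of 3.71. Its IP spots read 3579 and 3595 and its input spots 1210 and 1049, and the spot ratios were 1.78 and 2.00. The feature lay at percentile 96.5 of intergenic features on that array. On slide 1 its spots gave 1723 and 2269 in IP and no signal in input, and on slide 2 one spot gave 3645 in IP, also with no input signal. With a ratio on 1 array there is no test across arrays, and in the unturned reading the value is -1.89. The agreement of the paired spots (SD 0.15) covers spotting and scanning on that array only.

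**Figure D2:**
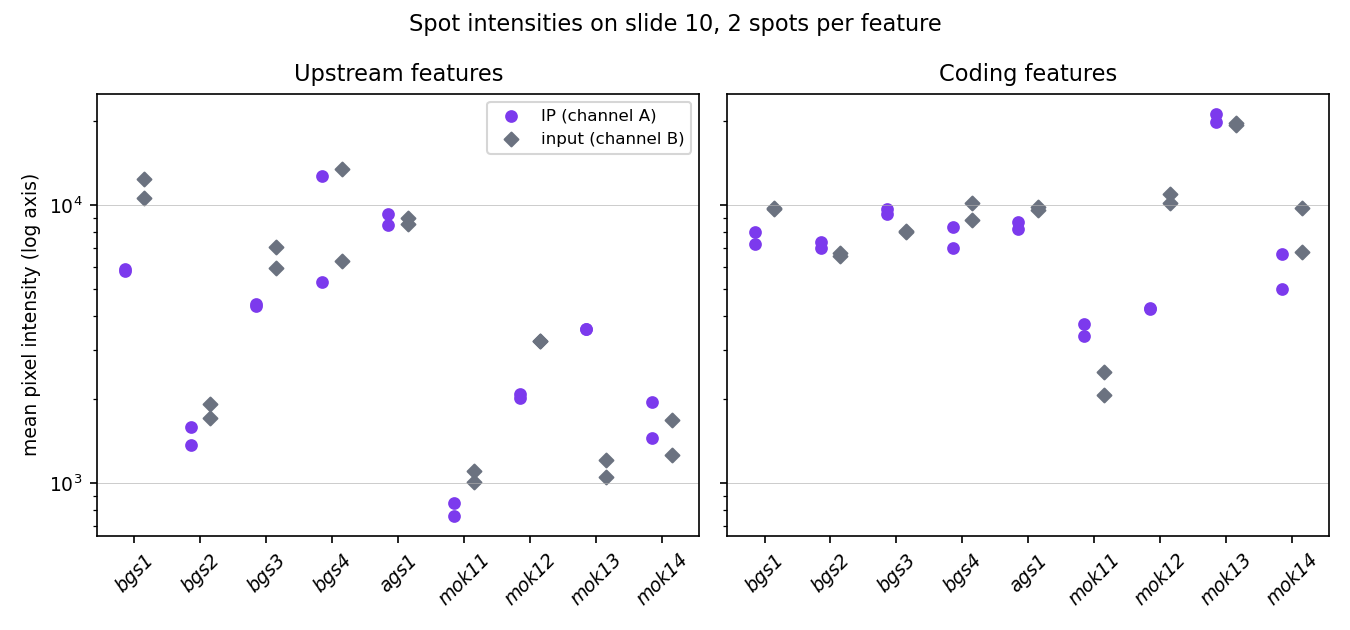
Mean pixel intensity on slide 10 (log axis) of the IP channel (circles) and the input channel (diamonds) for the upstream (left) and coding (right) features, with 2 spots per feature and channel. IP lies furthest above input at mok13 upstream and mok11 coding, and input lies furthest above IP at mok12 coding and bgs1 upstream. At other features IP also lies above or below input.

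The other upstream features of alpha-glucan synthase genes were lower. The ags1 upstream feature had 0.26 and 0.23 on slides 1 and 10, mok14 had 0.43 and mok11 had -0.18 on slide 10 alone, and mok12 had 0.11, 0.05 and -0.44 on slides 1, 2 and 10. The mok12 mean was -0.09 ± 0.30 (SD, n = 3; limma adjusted p = 0.851), and 0.20 in the unturned reading (limma adjusted p = 0.911). Its confidence interval ran from -0.75 to 0.56. The mok12 upstream feature lay at percentiles 27.3, 24.5 and 16.7 of intergenic features on slides 1, 2 and 10. On slide 1 the ags1 and mok12 values lay below the intergenic median of 0.63. The long intergenic feature of mok13 had -0.78, -0.49 and 0.42 on slides 1, 2 and 10 (limma adjusted p = 0.585). In the annotation the gap before the mok13 coding sequence is 878 bases and the gap after it 3202 bases, so the side on which this long feature lies is not known.

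The upstream and coding features of a gene were then compared within each array. For mok12 the upstream minus coding difference was 1.25, 1.60 and 0.65 on slides 1, 2 and 10, positive on each array. The mean difference of 1.17 ± 0.48 (SD, n = 3) passed in the limma fit over 623 genes (adjusted p = 0.0399), where 30% of all genes were higher upstream and 1.12% lower. The exact sign-flip test of these 3 values gave a two-sided p of 0.25, the smallest that 3 arrays allow. In the unturned reading the mean difference was 0.73 (limma adjusted p = 0.776), and among 1565 genes with the difference on at least 2 arrays its limma adjusted p was 0.123. Without slide 1 or without slide 2 the limma adjusted p was 0.286 and 0.429. With the deposited values, which track 1 channel rather than a ratio, the difference was 0.50 (limma adjusted p = 0.752). With intergenic and coding features centred separately it was 0.59 (limma adjusted p = 0.375), with local background subtracted 1.64 (0.0889) and with loess 0.85 (0.135). With normexp it was 2.38 (0.0157).

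Other members could be compared on fewer arrays. On slide 10 the difference was 1.60 for mok13, 0.70 for mok14, 0.22 for ags1 and 0.15 for bgs4. It was negative for bgs2 (-0.41), bgs1 (-0.62), bgs3 (-0.81) and mok11 (-1.04). On slide 1 it was 1.65 for ags1, 1.25 for bgs1, 0.97 for bgs3 and -0.05 for bgs4. The sign thus differed between slides 1 and 10 for bgs1, bgs3 and bgs4, whereas in the unturned reading it is ags1 and mok12 whose signs differ between these arrays. The median over all genes was 0.85, 0.82 and 0.20 on slides 1, 2 and 10, with 75.6%, 74.8% and 62% of genes positive.

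**Figure D3:**
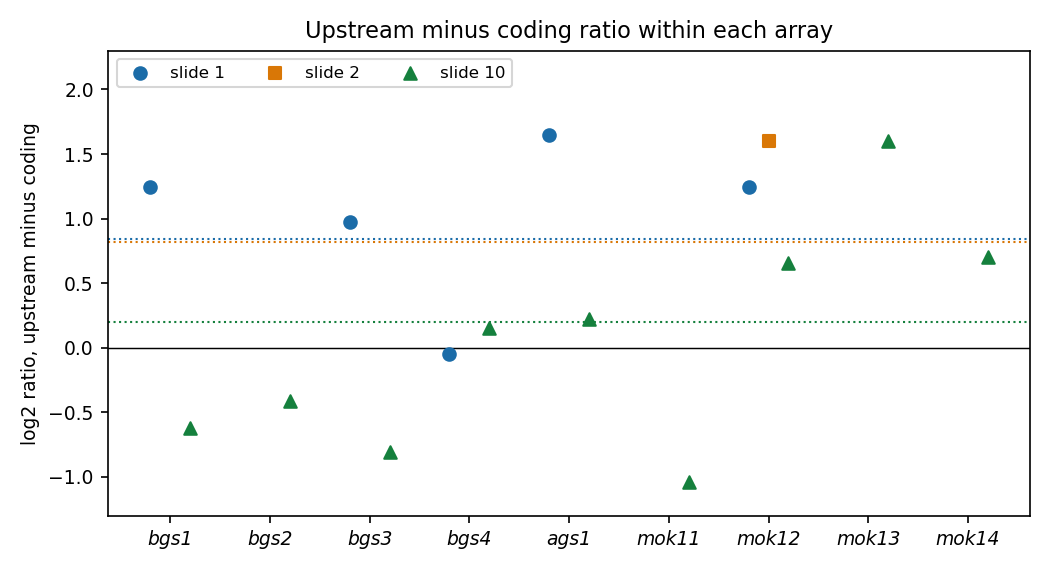
Difference of the log2 ratio between the upstream and the coding feature of the same gene (y axis), one point per array; dotted lines mark the median over all genes on the array of the same colour. mok12 is the only gene with a point on each of the 3 arrays, at 1.25, 1.60 and 0.65.

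Several members share their upstream region with a neighbour whose own upstream feature is on the array. The region between bgs3 and gas1 spans 3544 bases between the coding sequences of divergent genes. gas1 encodes a beta-glucanosyltransferase, an enzyme that elongates wall beta-glucan. Its upstream feature had 2.41 on slide 2 and 2.42 on slide 10. The slide 2 value rests on 1 spot, and slide 1 gave IP signal at 1 spot and no input signal. On slide 10 its IP spots read 19164 and 17695, against 3993 and 4007 in input. The feature was enriched in the fit of features on at least 2 arrays (limma adjusted p = 0.00341), while the bgs3 upstream feature across the same region was not (0.927). These results rest on slides 2 and 10 for gas1 and on slides 1 and 10 for bgs3. Only slide 10 measured both, with 2.42 for gas1 and -0.35 for bgs3. The long intergenic feature named after gas1 had 0.08 and 0.58 on slides 2 and 10. In the unturned reading the gas1 upstream mean was -0.0038, since its arrays then oppose each other.

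The region between mok13 and dna2, a helicase and nuclease gene of DNA replication, spans 878 bases. The dna2 upstream feature had 1.32 on slide 2 and 1.31 on slide 10, with a limma adjusted p of 0.061 among features on at least 2 arrays and an unturned mean of 0.0043. Its slide 2 IP spots, at 3643 and 3690, lay below the negative-control limit of 4452 on that array. Slide 1 gave IP signal at 1 spot and no input signal. On slide 10 both features of this region were above the median, at percentiles 96.5 (mok13) and 91.3 (dna2) of intergenic features.

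The feature upstream of SPAC24C9.08, a carboxypeptidase gene divergent from bgs2, had 0.10, 0.82 and 1.13 on slides 1, 2 and 10 (limma adjusted p = 0.165). That of mbx1, a MADS-box factor gene divergent from bgs1, had 0.41, -0.05 and -0.25 (limma adjusted p = 0.948). The feature of the importin gene sal3 beside bgs4 had 0.75 on slide 10, and those of mug112 beside ags1 and alg2 beside mok12 had -0.08 and -0.04. Between bgs4 and sal3 and between ags1 and mug112 the annotation places another gene. The gene before mok14, mib1, runs in tandem with it, so its upstream feature, with 0.15 on slide 10, lies on the far side of mib1. The feature of aah2 beside mok11 had no ratio.

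**Figure D4:**
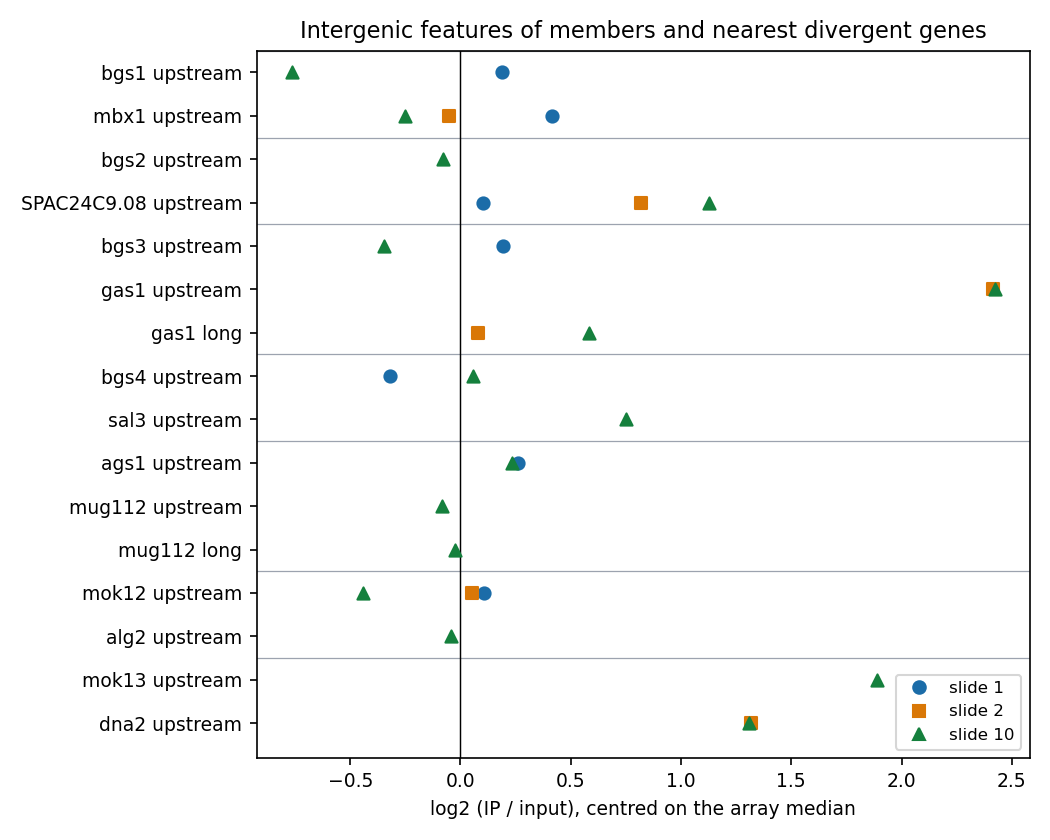
Log2 ratio of IP over input (x axis, centred on each array's median) for the intergenic features of 7 members and of the nearest divergent gene with a feature, one point per array. mok11 is not drawn because the feature of its neighbour aah2 had no ratio, nor mok14, whose neighbour mib1 is in tandem. The gas1 points of slides 2 and 10 coincide at about 2.4, to the right of the bgs3 points, and the dna2 points coincide at about 1.3.

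How far features of neighbouring genes can be read apart was looked at over the whole array. On slide 10 the upstream features of divergent neighbours, which share a region, correlated at 0.621 across 1076 pairs, against 0.357 for 1802 tandem pairs and 0.224 for 1080 convergent pairs. These are descriptions across features of 1 array. Between the coding sequences of the members the longest identical run was 32 bases, between bgs2 and bgs3, followed by 26 bases between bgs1 and bgs2. Hybridisation between members was not tested.

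Ranking followed the rule in the design text, the median over arrays of a feature's percentile with a limit at the 85th percentile. The mok13 upstream feature stood at 97.5 and the mok11 coding feature at 88.5, both from slide 10 alone, and these were the 2 of 21 member features at or above the limit. Among all features with a ratio, 17% of intergenic and 5.17% of coding features were at or above it. In the unturned reading, and also without slide 10, 0 member features reached the limit. For mok13 upstream and mok11 coding this was fixed in advance, because their only value turns its sign or is missing there. The lowest median percentiles were those of the coding features of mok12 (6.31), ags1 (7.91) and bgs1 (13).

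The regulators of wall synthesis were read from a list of 25 genes of the cell integrity pathway, its regulators and further wall synthesis. Upstream, 7 of 25 features were measured on all 3 arrays and 1 was enriched, beside 19.7% of all tested intergenic features. It was that of rga5, which encodes a GTPase-activating protein. It had 1.15, 1.33 and 1.11 on slides 1, 2 and 10, above 1 on every array (mean 1.20 ± 0.12, SD, n = 3; limma adjusted p = 0.0231). In the unturned reading its mean was 0.46 (limma adjusted p = 0.885). Depleted upstream features numbered 0 of 7. Of 23 coding features, 13 were tested and 1 was depleted, beside 7.85% of all tested coding features. It was that of pek1, the MAP kinase kinase of the cell integrity pathway, which the array names skh1. It had -1.64, -1.20 and -0.61 (mean -1.15 ± 0.52, SD, n = 3; limma adjusted p = 0.0378), and an unturned mean of -0.74 (limma adjusted p = 0.785). Enriched coding features numbered 0 of 13. Without slide 1, and also without slide 2, 0 upstream and 0 coding features of the list were called. At an unadjusted limma p under 0.05, 3 of the 7 upstream and 4 of the 13 coding features passed, beside 35.8% of all tested intergenic and 29.6% of all tested coding features. The medians of the list were 0.33 upstream and -0.26 coding, beside 0.36 for all tested intergenic and -0.28 for all tested coding features.

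The upstream features with values nearest to those of mok12, by Euclidean distance over the 3 arrays among 1230 candidates, were those of kin1, SPAC22E12.18 and rhb1. Their distances were 0.0628, 0.134 and 0.183 on the log2 scale. The kin1 feature had 0.11, -0.01 and -0.42 on slides 1, 2 and 10 (limma adjusted p = 0.834). kin1 encodes a kinase of cell polarity and rhb1 a small GTPase of TOR signalling.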

How the data were processed

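The members and gene lists were chosen with earlier results of these data known. Per the file headers, the deposited Spotfinder files hold the intensity of 2 channels per spot in whole numbers. The deposited series table holds log10 values, which the authors median-normalised in GeneSpring per the labels; their medians are 0.01, 0.02 and -0.04 on slides 1, 2 and 10. Set against the scanner values, they track 1 channel rather than a ratio (r = 0.999, 0.999 and 0.949). The array design's genome build is not named in the labels or file headers.

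The log2 ratios were computed here from integrated intensities without background subtraction; mean pixel intensities, which are the values printed per spot, give spot ratios that differ by at most 0.0115 on the log2 scale. Spots lacking signal in either channel were dropped, ratios were centred per array on the median, and the spots of each feature were averaged. An intercept model (limma 3.58.1, R 4.3.3) compared each of the 3960 features present on every array with 0, two-sided, with Benjamini-Hochberg adjustment over them, and enriched or depleted means an adjusted p under 0.05. The rule for named genes took all 9 members, genes sharing a region with a member, listed regulators that were called, and the 3 features nearest to the highest tested member upstream feature. The script was tested on simulated data. The number of arrays limits the precision. Alternatives covered orientation, background, normalisation, filters, the deposited values and leaving out each array. Some items are not reported here.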

Additional observations from a re-analysis of the deposited data

How the results depend on the processing

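No paired comparison of groups was possible because the series has 1 group. IP and input were paired on each array, and the upstream minus coding difference was taken within each array. Of 197 recomputed values, 123 stayed on their side of the threshold, within 1.5 times a count or within the spread, of which 8, for features not called, turned their sign. The other 74 did not. With channel B over A on all 3 arrays, limma called 0 of 3960 features in either direction (138 at an unadjusted p under 0.05), hence 0 member coding features, 0 pathway features upstream or coding, 0 genes higher and 0 lower upstream, and 0 member features at or above the 85th percentile; the mok13 upstream value on slide 10 was -1.89. With local background subtracted, 135 features were enriched and 7 depleted, 0 member coding features and 0 pathway features upstream or coding were called, and 84 genes were higher and 1 lower upstream; mok12 coding had -1.62 (limma adjusted p = 0.0659). With loess within each array, 0 member coding and 0 pathway coding features were depleted, 2 pathway upstream features were enriched and 86 genes were higher upstream; mok12 coding had -0.83 (limma adjusted p = 0.0608). With the 2 feature kinds centred separately, 0 pathway features upstream or coding were called, and 73 genes were higher and 37 lower upstream. On at least 2 arrays, 4 genes were lower upstream. Without the features dimmest in input, 91 features and 0 pathway upstream features were enriched, and 62 genes were higher upstream. The authors' deposited values track 1 channel rather than a ratio. With them, limma called 0 features in either direction (597 at an unadjusted p under 0.05), 0 member coding features and 0 pathway features. They gave 0 genes higher or lower upstream by limma, and 1 member feature reached the 85th percentile. The cause of these changes was not tested.

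Leaving out each array in turn gave 209 to 331 enriched and 9 to 548 depleted features, 0 to 3 depleted member coding features, 0 to 2 enriched pathway upstream and 0 to 3 depleted pathway coding features, 28 to 232 genes higher and 1 to 14 lower upstream, and 0 to 2 member features at or above the 85th percentile. The mok12 coding call held with normexp (limma adjusted p = 0.0207), separate centring (0.0407), the filter on dim input (0.0261) and features on at least 2 arrays (0.0266). With channel A as IP, the mok13 upstream ratio on slide 10 ranged from 1.81 with separate centring to 3.53 with normexp; the deposited value there, which tracks 1 channel, was 0.91. On slides 1 and 2, missing signal left few upstream features with a ratio.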
